A study of Canis lupus familiaris with 2 samples.

Results

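The miR-148 and miR-152 family of the dog has 3 members on the chip, cfa-miR-148a, cfa-miR-148b and cfa-miR-152, among 291 dog miRNAs in all. The members were taken by name, as the dog spots whose number is that of miR-148 or miR-152 with any letter after it, without regard to their signal. miRNAs were measured in serum of male dogs at 2 months of age, in 1 pool of 3 normal dogs and 1 pool of 3 dystrophic dogs. The dystrophic dogs carried canine X-linked muscular dystrophy (CXMD_J), a model of Duchenne muscular dystrophy, and all animals came from the colony in which this disease is bred. The RNA of a pool was labeled with Cy5 and hybridized to 1 array of 3200 spots, with 1 spot for each dog miRNA, so that differences between dogs and between arrays could not be estimated and no test was made. The labels of the sera were checked on 8 muscle miRNAs, which did not all go the same way. Of the 8, 4 were detected in both sera, beside 48.8% of all dog miRNAs, namely miR-133a, miR-133b, miR-133c and miR-206. All 4, beside 13.4% of all miRNAs detected in both, had more than 2-fold higher signal in dystrophic serum, and miR-1 was detected there alone. miR-499 was detected in normal serum alone, with normalized signals of 12.3 in normal and 5.14, under the limit, in dystrophic serum, and miR-208a and miR-208b were detected in neither.

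The mature forms of miR-148a, miR-148b and miR-152 share a seed, the stretch near the 5′ end by which a miRNA recognizes its mRNAs, and are therefore read as 1 family with overlapping targets. The family is known for repressing the DNA methyltransferase DNMT1, and miR-148a, which is abundant in liver, is also known to promote the differentiation of myoblasts. Because the probes of such similar miRNAs can capture each other's RNA, the share of each member in a signal is uncertain.

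On these arrays the family lay at the level of the background. miR-148a was just above the detection limit in both sera, with a dystrophic over normal ratio of 0.914, and miR-148b and miR-152 were not detected in either serum. Detection means that a spot was above the mean of the blank spots plus 2 SD, after 5% of the 1408 blank spots had been trimmed at each end, and that the scanner software had not marked it as unusable. The second condition removed 1 dog miRNA, miR-34a on the dystrophic array, whose spot of 203.5 was above the limit, and no member of the family. For normal serum this limit was 125.9 scanner units, and for dystrophic serum it was 124.0 units. Of all dog miRNAs, 54.6% were detected in normal serum, 64.6% in dystrophic serum and 48.8% in both, compared with 1 of the 3 members in each case.

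The spot of miR-148a read 126.1 on the normal array and 125.2 on the dystrophic array. It passed the limit by 0.265 and 1.12 units, respectively, while the SD of the trimmed blank spots was 3.94 and 4.12 units. Both distances were thus smaller than the spread of spots that carry no miRNA probe. On the normal array 127 blank spots (9.02%) were at least as bright as the miR-148a spot, and on the dystrophic array 96 (6.82%) were. Among the 181 positions that the files list as having no probe, 45 and 37 reached the same brightness, as did 21 and 26 of the 32 negative-control spots. Of the miRNAs detected in normal serum, 2 of 159 were closer to the limit than miR-148a, and of those detected in dystrophic serum 9 of 188 were.

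miR-148b, which the RefSeq annotation places within the gene COPZ1, read 119.2 in normal and 122.1 in dystrophic serum. The distance of its spot from the limit was -6.69 units in normal serum and -1.93 units in dystrophic serum. Blank spots of at least this brightness made up 34.9% and 12.8% of all blank spots. The spot of miR-152, annotated within COPZ2, read 119.0 in normal and 113.6 in dystrophic serum. Relative to the mean of the trimmed blank spots it was at 0.255 SD in normal serum and at -0.535 SD in dystrophic serum. Blank spots matched or exceeded it in 36.5% and 64.8% of cases, so it lay within the bulk of the blank spots on both arrays. A signal of up to 8.19 in normal and 6.81 in dystrophic serum, in normalized units, would have stayed under the limit, so neither miRNA can be called absent from serum.

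**Figure D1:**
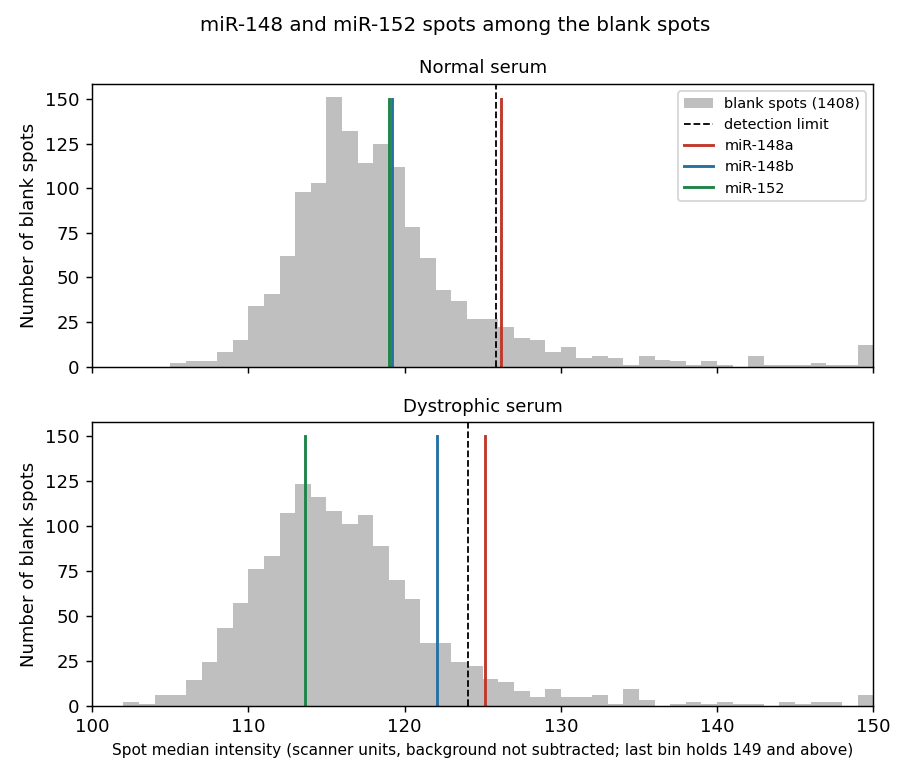
Histograms of the spot median intensity of the 1408 blank spots on each array, in scanner units without background subtraction (1 unit per bin, the last bin holding all brighter spots), with the detection limit as a dashed line and the single spot of each family member as a colored line. The miR-148a line stands just right of the limit in both panels (126.1 and 125.2), and the lines of miR-148b and miR-152 stand left of it, among the blank spots.

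For the comparison of dystrophic with normal serum, the mean of the trimmed blank spots was subtracted and the signals of each array were scaled to a median of 25 over its detected miRNAs. The normalized signal of miR-148a was 8.46 in normal and 7.74 in dystrophic serum. Its ratio of 0.914 lay between the limits of above 2 and 0.5 or less, as did those of 115 of the 142 miRNAs detected in both sera. Of these 142, 13.4% were above 2-fold and 5.63% at 0.5-fold or less; no member of the family was among either. The median ratio of the 142 was 1.09, with quartiles of 0.806 and 1.58, and 46 of them had a lower ratio than miR-148a. When the spots of both arrays were moved by 1 SD of the blank spots in opposite directions, the ratio of miR-148a ran from 0.345 to 2.55. Changes of 2-fold in either direction lie inside this range, and a difference was not detectable at this signal. Before scaling, the background-subtracted signal of miR-148a was 8.14 in normal and 9.35 in dystrophic serum, and the ratio without scaling was 1.15, so that the side of 1 on which it fell depended on the scaling. The number of cells that release a miRNA into serum and the amount released by each cell cannot be told apart in these data.

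No ratio was formed for the undetected members, which have no order below the limit. For a description of the spots, the background-subtracted reading of miR-148b was 1.18 in normal and 6.30 in dystrophic serum, and that of miR-152 in dystrophic serum was -2.20. The dystrophic minus normal difference was 5.13 units for miR-148b, 1.22 for miR-148a and -3.21 for miR-152. The SD of a difference between blank readings of both arrays combined was 5.70 units, which is larger than each of the 3 differences. The differences were not all of 1 sign. Among themselves the 3 spots had an SD of 4.07 units in normal and 5.99 units in dystrophic serum. With n = 3, the former is close to the SD of the trimmed blank spots and the latter is above it, and both are below the SD of all blank spots, 7.27 and 7.19 units.

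The blank level differed between parts of the array, and the members lay in different blocks of 44 blank spots each. In the block of miR-148a, the blank spots had a mean of 115.7 ± 3.68 (SD, n = 44) in normal and 114.3 ± 3.94 in dystrophic serum. Against these local blank spots miR-148a stood out more, since 1 of the 44 on the normal array and 0 of the 44 on the dystrophic array were at least as bright. In the block of miR-148b, 7 of 44 blank spots reached the brightness of its spot in normal serum and 4 of 44 did in dystrophic serum. The block of miR-152 was uneven on the normal array, with blank spots of 126.9 ± 15.3, and 30 of its 44 blank spots were at least as bright as miR-152. On the dystrophic array the same block had blank spots of 111.9 ± 3.77, and 14 of 44 were at least as bright. With the blank level taken from each member's own block, miR-148a was again the only member detected, in both sera, and its ratio was 0.861. More than 48.8% of all dog miRNAs, the share with the common blank level, were then detected in both sera.

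The scanner output also gives the brightness of the slide around each spot. For miR-148a this local background was 88.5 in normal and 104.2 in dystrophic serum, so that the spot exceeded its surroundings by 37.6 and 21.0 units. The median excess of the blank spots was 40.8 and 34.6 units. By this measure 64.1% of the blank spots on the normal array and 95.2% of those on the dystrophic array were at least as bright as miR-148a. miR-148b exceeded its surroundings by 43.8 units in normal and 30.6 units in dystrophic serum, more than miR-148a in both, and miR-152 did so by 29.2 and 29.4 units. The detection of miR-148a thus rested on the intensity of the spot without its local background. It was also lost with a limit of 3 SD, with the 95th percentile of the blank spots as the limit, and with blank spots that were not trimmed. With these settings 0 of the 3 members were detected in either serum. Of all 291 dog miRNAs, 118 stayed detected in both sera at 3 SD, 118 with the 95th percentile and 99 with untrimmed blank spots. With local background subtraction 21 were detected in both sera, and the bright miR-451 was not among them, so that this setting says little about the family.

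The pattern most like that of miR-148a, by Euclidean distance between normalized signals over 2 arrays, was that of miR-122, the main miRNA of hepatocytes. Its normalized signal was 8.63 in normal and 8.14 in dystrophic serum, at a distance of 0.440 from miR-148a. miR-1842 and miR-141 followed, at distances of 1.21 and 2.14. All 3 distances were smaller than 1 SD of the blank spots, 4.09 normalized units in normal and 3.40 in dystrophic serum. The order of the 3 therefore has no meaning beyond that of spots near the blank level. miR-1842 was not detected in either serum, and miR-141 was detected in dystrophic serum with a signal of 7.04. Of the other 290 dog miRNAs, 20 had spots within 1 SD of the blank spots from miR-148a on both arrays, all close to the blank level.

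All 3 members matched a gene by name in RefSeq (dog assembly UU_Cfam_GSD_1.0), from which names and neighboring genes, but no positions, were taken. miR-148b lies within the span of COPZ1 and miR-152 within that of COPZ2, paralogs that encode zeta subunits of the coatomer of transport vesicles. miR-148a lies within no other annotated gene. Some protein-coding neighbors of the 3 miRNAs belong to the same gene families. In the order of the assembly, NFE2L3, HNRNPA2B1, CBX3 and SNX10 follow miR-148a. CBX5, HNRNPA1 and NFE2 precede miR-148b, and NFE2L1, CBX1 and SNX11 follow miR-152. Each member thus has 1 gene of the NFE2 transcription factors and 1 of the CBX heterochromatin proteins among its 4 nearest protein-coding genes on a side. These names were noted after the annotation had been seen. The mRNAs of the neighboring genes were not measured on these arrays.

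miR-130 and miR-301 belong to a family whose seed overlaps that of miR-148 with a shift of 1 base, and they were taken by name for comparison. In normal serum 0 of these 4 miRNAs were detected, beside 54.6% of all dog miRNAs, and in dystrophic serum 2 were, beside 64.6%, miR-130a with a normalized signal of 13.2 and miR-130b with 11.2. miR-454, which is known to belong to the same family and was added after its values were seen, had a signal of 7.25 in dystrophic serum and was not detected in normal serum, so that with it 0 of 5 were detected in normal and 3 of 5 in dystrophic serum. With normal serum set to its lowest detected signal, 8.30, miR-130a was at least 1.59-fold and miR-130b at least 1.35-fold higher in dystrophic serum. These bounds take the dystrophic signals as exact, while 1 SD of the blank spots on the dystrophic array was 3.40 in normalized units. The signal of miR-130b exceeded 8.30 by less than this SD, so its bound is not firm. Both bounds also hold only for the scaling over the detected miRNAs of each array. With scaling on the miRNAs found in both sera they are lower, as is the ratio of miR-148a, 0.751 instead of 0.914. Blank spots reached the brightness of miR-130a in 3.05% and that of miR-130b in 3.98% of cases on the dystrophic array. miR-301a and miR-301b read 117.7 and 121.4 in normal serum and 116.3 and 117.4 in dystrophic serum, among the blank spots like miR-148b and miR-152. The difference between the families was not tested.

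Among 9 other miRNAs known to repress DNA methyltransferases, 5 were detected in both sera, beside 48.8% of all dog miRNAs, namely miR-29a, miR-29b, miR-29c, miR-140 and miR-342. miR-101 was detected in normal serum alone and miR-185 in dystrophic serum alone, while miR-126 and miR-143 were detected in neither. The median ratio of the 5 was 1.20, compared with 1.09 for all miRNAs detected in both. When the scaling used just the miRNAs found in both sera, these medians were 0.989 and 0.898, an order that a common factor cannot change. Without background subtraction the order was reversed, at 1.022 and 1.036. It was also reversed with normexp, untrimmed blank spots, limits of 3 SD or the 95th percentile, and a required signal of 25. With quantile normalization and with blank spots of the same block the list stayed higher. Of the 5, 0 were above 2-fold, beside 13.4% of all ratios, and 1 was at 0.5-fold or less, beside 5.63%. The latter was miR-140, a miRNA of cartilage, with a normalized signal of 297 in normal and 135 in dystrophic serum. Its ratio of 0.454 ran from 0.436 to 0.472 when its spots were moved by 1 SD of the blank spots, and from 0.373 to 0.672 under 13 processing alternatives, of which 9 gave 0.5 or less. The highest ratio of the list was that of miR-29b, 1.71, with a range of 0.920 to 3.79 for 1 SD. Under the alternatives it ran from 1.03 to 2.24 and was above 2 in 2 of 9.

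Of 12 miRNAs on the chip that, like miR-148a, are known to promote myoblast differentiation without being confined to muscle, 11 were detected in both sera, compared with 48.8% of all dog miRNAs. Their median ratio was 1.16, beside 1.09 for all miRNAs detected in both. With scaling on the miRNAs found in both sera these medians were 0.954 and 0.898. The order was reversed only without background subtraction, at 1.033 and 1.036. miR-181b was detected in normal serum alone, and miR-486, also listed, was not on the chip. The 3 miR-29 members belong to both lists. Of the 11 ratios, 0 were 0.5 or less, beside 5.63% of all ratios, and 2 exceeded 2, beside 13.4%. miR-378, known from mitochondrial metabolism, went from 57.3 to 215, a ratio of 3.75 with a range of 3.45 to 4.11 for 1 SD, and it stayed above 2-fold under all 13 alternatives that gave it a ratio. miR-27b had a ratio of 2.23, which ran from 1.43 to 2.89 under the alternatives and was above 2 in 9 of 13. The brightest of the list, miR-24, had normalized signals of 469 and 501 and a ratio of 1.07, which was 0.405 with quantile normalization and 4.96 with local background subtraction. The lowest ratio was that of miR-424, 0.673, and its range for 1 SD, like that of miR-148a, includes 1.

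**Figure D2:**
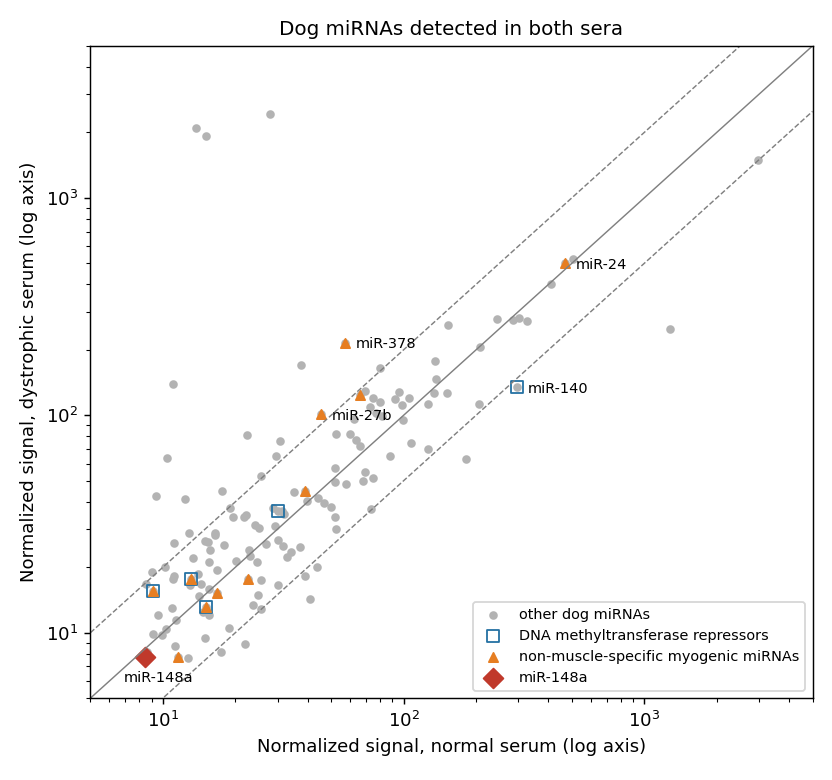
Normalized signal of the 142 dog miRNAs detected in both sera, normal serum on the x axis and dystrophic serum on the y axis, both log axes, 1 point per miRNA, with lines at ratios of 2, 1 and 0.5. miR-148a (diamond; 8.46 and 7.74) lies near the line of equal signal at the dim end, while miR-378 lies above the 2-fold line and miR-140 below the 0.5-fold line.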

How the data were processed

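The authors mixed the sera of 3 dogs per condition, extracted and labeled the RNA, hybridized it to 3D-Gene 4 animal miRNA Oligo chips and read the signals with 3D-Gene Extraction software, whose version and settings are not given in the sources used here. The deposited scanner output holds the median intensity of each spot and of its local background, without normalization. The deposited table of globally normalized intensity values, rounded to 1 decimal, differed from the values recomputed here by at most 0.0498 units and had the same entries as not detected.

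Detection, blank subtraction and scaling are described with the results. Each condition has 1 array, and no p-value was computed; the number of arrays limits the precision. The range given with a ratio moves both spots by 1 SD of the trimmed blank spots and leaves out dogs, RNA preparations and arrays. The family and the lists of miRNAs were chosen with earlier results of these data known, and the lists were written from general knowledge. The miRNAs named are the family, the miR-130 and miR-301 family, the 3 nearest to miR-148a, and from each list the brightest and those with the largest ratio in each direction; miR-27b, miR-34a, miR-133a, miR-133b, miR-454 and the listed miRNAs named for their detection were chosen after their values were seen. 14 alternatives of background, detection, scaling and filtering were run. The steps were also run on simulated arrays with known changes. There the ratios were divided by the median of the unchanged miRNAs, which is not known for serum. The simulated noise was normal with the SD of the trimmed blank spots, which is smaller than the SD of all blank spots. That run therefore does not test the scaling or the calls near the limit. No miRNA sequences were used here. The software was R 4.3.3 with limma 3.58.1, and Python 3.11.15 with numpy 2.4.6, pandas 2.3.3 and matplotlib 3.10.9.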

Additional observations from a re-analysis of the deposited data

How the results depend on the processing

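Of 14 alternatives, 9 gave a ratio for miR-148a, from 0.684 with quantile normalization to 1.15 without scaling, all inside the range for 1 SD of the blank spots, and 8 of the 9 were below 1. The other 5 gave none: local background, untrimmed blank spots, detection at 3 SD, detection at the 95th percentile of the blank spots, and a required signal of 25. Under the first 4 the number of members detected was 0 in normal and 0 in dystrophic serum, instead of 1 and 1. Untrimmed blank spots, 3 SD and the 95th percentile raise the limit. With local background the miR-148a spot exceeded its surroundings by 37.6 units in normal and 21.0 units in dystrophic serum. The median blank spot did so by 40.8 and 34.6 units, so that miR-148a was under the limit. Why its surroundings were bright was not tested. The median log2 ratio of all miRNAs detected in both sera, 0.13, was 0.46 without scaling, -0.16 with scaling on those 142 miRNAs and -0.26 with quantile normalization. A common factor leaves the place of miR-148a among the ratios unchanged by construction; with quantile normalization it was again below the median. The numbers above 2-fold and at 0.5-fold or less, 19 and 8 (70.4% above among those called), became 34 and 3 (91.9%), 12 and 19 (38.7%), and 10 and 22 (31.2%) in that order. They were 6 and 1 without background subtraction and with normexp, 6 and 2 of 21 with local background, 22 and 3 with untrimmed blank spots, 12 and 9 at 3 SD, 8 and 3 of 71 with a signal of 25, and 29 and 16 with undetected signals set to the limit. No replicate could be left out. No paired analysis was possible because the values come from single arrays without a test. Signal over background limits the whole family.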

Other observations

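Lists of miRNAs from possible sources of serum miRNA were read beside the signals of miR-148a, and their part in those signals was not tested. Of 4 liver miRNAs, 3 were detected in both sera, beside 48.8% of all dog miRNAs. Their median ratio was 0.943, or 1.19 without scaling, beside 1.09 and 1.37 for all miRNAs detected in both. With untrimmed blank spots 2 liver miRNAs were left and the order was reversed, at 1.58 and 1.37. It was also reversed with limits of 3 SD or the 95th percentile and with a required signal of 25. The 3 lay between 0.5-fold and 2-fold, as did 115 of all 142. The ratio was 0.889 for miR-192 and 1.57 for miR-885, the brightest, whose normalized signal was 52.3 in normal serum and 82.0 in dystrophic serum. The summed signal of the detected liver miRNAs was 91.0 in normal and 117 in dystrophic serum, and miR-194 was not detected in either. Of the muscle miRNAs 5 of 8 were detected in each serum, beside 54.6% of all dog miRNAs in normal and 64.6% in dystrophic serum, and the corresponding sums were 80.0 and 6616. These sums count the spots of miR-133a, miR-133b and miR-133c separately, although their probes can capture the same RNA.

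Of the red-cell miRNAs, 2 of 3 are on the chip. miR-451 had a normalized signal of 1276 in normal serum against 250.0 in dystrophic serum. Its ratio, 0.196, stayed at 0.5 or less under all 13 alternatives giving one, and miR-144 was not detected in either serum. Of 4 miRNAs of white cells and platelets, 3 were detected in both sera, beside 48.8% of all. Their median ratio was 0.743, beside 1.09 for all miRNAs detected in both, and it was 0.935 without scaling and 0.611 with scaling on those 142 miRNAs. Their sums were 306 and 207. miR-223, the brightest, went from 206 to 113. The signal of miR-142 went from 12.8 to 28.7, a ratio of 2.24. It ran from 1.12 to 2.82 under the alternatives and was above 2 in 7 of 11. The paper lists a primer for miR-142. The elevated miRNAs for which it reports a significant difference by RT-qPCR were miR-188 and miR-500.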
